A study of Homo sapiens with 2 samples.

Results

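The microRNAs (miRNAs) described here are those with a number of 1000 or more in their name, which were added to the catalogue after the classical families. Members were taken from the table of counts by name alone: a locus belongs where miR- is followed by 1000 or a higher number, whatever its letter, copy or arm. This gave 120 of the 947 loci in the table, with 109 distinct names from miR-1185-5p to miR-10523-5p. The other miRNA names, 330 loci with 279 names numbered under 1000 and let-7 among them, served as the comparison, and 497 loci carried no miRNA name. Counts given for names under 1000 are counts of loci unless distinct names are stated.

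The libraries came from MCF10A, a human breast epithelial line that forms no tumours and is grown as a model of normal basal mammary cells. One group had received 2 µM withaferin A, a steroidal lactone of the plant Withania somnifera, for 24 h, and the other was left untreated. Each group has 3 libraries, and nothing in the labels says that they came from separate cultures, so the spread between them may be technical. The labels' protocols name 2 library kits; if they are listed in the order of the samples, the kit changed with the treatment and the effects of both cannot be told apart.

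A miRNA is cut from a hairpin precursor, first by Drosha with DGCR8 and then by Dicer, and its bases 2 to 8, the seed, choose the messenger RNAs it represses. Names were given in order of submission, so low numbers mostly went to abundant, conserved miRNAs found by cloning. Numbers of 1000 and above largely come from deep sequencing, and some entries are thought to be fragments of transfer RNA (tRNA), other structured RNAs or repeats. Levels are given as CPM, a locus's counts per 1000000 counts of its library. Bulk libraries cannot tell a lower level in every cell from fewer cells with the miRNA.

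The withaferin A libraries held 340 to 430 counts each, 1188 in all, against 1855838 to 2615684 in untreated libraries. Whether the withaferin A columns hold all reads of those libraries is not given in the sources used here, so their totals are the depth of the table and may not be that of the sequencing. Epithelial marker miRNAs (8 of 8 present) took 35.8% ± 3.89 of withaferin A counts and 38.6% ± 2.34 of untreated counts (SD, n = 3 each). The near-equal sums came from unlike members: miR-21-5p had 29 withaferin A counts where its untreated share would give 349 (lower, edgeR adjusted p = 0.00188), and miR-205-5p had 395 where it would give 81.0 (edgeR adjusted p = 0.161). The other 6 had 0 to 2 withaferin A counts each. Of these, miR-221-5p, miR-200c-5p and miR-222-5p were also called lower (edgeR adjusted p = 0.0127, 0.0162 and 0.0192). miR-31-5p, miR-203a-5p and miR-141-5p were not called. Blood, liver and muscle, mesenchymal and neural marker lists (10 of 15 numbers present) had 0 withaferin A counts and took at most 0.0111% each of an untreated library. A count of 0 of 1188 allows a share of up to 0.253%, well above these, so the depth fixed that result. It says nothing about which cells gave the withaferin A libraries.

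The mature sequences below belong to names among the 15 most abundant members and are shown because those few names carried most of the counts. Of these 15 names miR-1322, miR-1296-5p and miR-4664-5p are not shown. They are RefSeq's entries for the names in the table (GRCh38.p14), 5′ to 3′, with the seed in capitals. Of the 109 names 97 matched a RefSeq entry.
miR-1260b: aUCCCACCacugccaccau
miR-1307-5p: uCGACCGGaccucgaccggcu
miR-3613-5p: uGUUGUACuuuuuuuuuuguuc
miR-1303: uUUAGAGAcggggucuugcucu
miR-3065-5p: uCAACAAAaucacugaugcugga
miR-6510-5p: cAGCAGGGgagagagaggaguc
miR-7706: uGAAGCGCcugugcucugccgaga
miR-1275: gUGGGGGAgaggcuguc
miR-4677-5p: uUGUUCUUuggucuuucagcca
miR-1304-5p: uUUGAGGCuacagugagaugug
miR-1249-5p: aGGAGGGAggagaugggccaaguu
miR-3934-5p: uCAGGUGUggaaacugaggcag
No seed recurred within this set. The table gave 76 member loci the arm 5p, 2 the arm 3p and 42 none, so which arm the reads came from cannot be read from a name.

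Nearly every member had a count in untreated cells, as did nearly every locus of the table, but most members had only a few. Of the 120 loci 119 had a count in at least 1 untreated library, and 91 (75.8%) had a count in all 3, against 313 of 330 (94.8%) for names under 1000. Over all 947 loci 946 had a count in at least 1 untreated library and 717 (75.7%) in all 3. The members' share was near that of the whole table. At 10 counts or more in every untreated library 35 members remained (29.2%), against 239 (72.4%) of the names under 1000 and 42.0% of all loci. At 50 counts or more there were 10 members (8.33%), against 184 (55.8%). Counts in only 1 untreated library were seen at 12 members and in only 2 at 16, and the locus of miR-2277-5p had 0 in all. miR-1286, for example, had 5, 0 and 0 counts in the 3 untreated libraries and miR-5008-5p 0, 2 and 0. The authors' deposited table of normalized scores listed 87 of the 120 members (72.5%) and 304 of the 330 loci named under 1000 (92.1%). Of all 947 loci it listed 660 (69.7%). It listed exactly the loci above 0.5 CPM in at least 3 libraries, so 33 members never entered it.

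The median untreated level of the members was 2.01 CPM (quartiles 0.947 and 8.28), against 44.7 CPM (quartiles 4.75 and 684) for names under 1000. Loci without a miRNA name had a median of 1.69 CPM. Only 4 members averaged over 100 CPM (3.33%), against 137 (41.5%) of the names under 1000, and no member passed 1000 CPM, against 72. Together the members took 0.259%, 0.315% and 0.244% of the 3 untreated libraries (0.273% ± 0.0374, SD, n = 3). Names under 1000 took 98.3% ± 0.109. These shares describe the classes, with no test, since loci are not replicates.

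**Figure D1:**
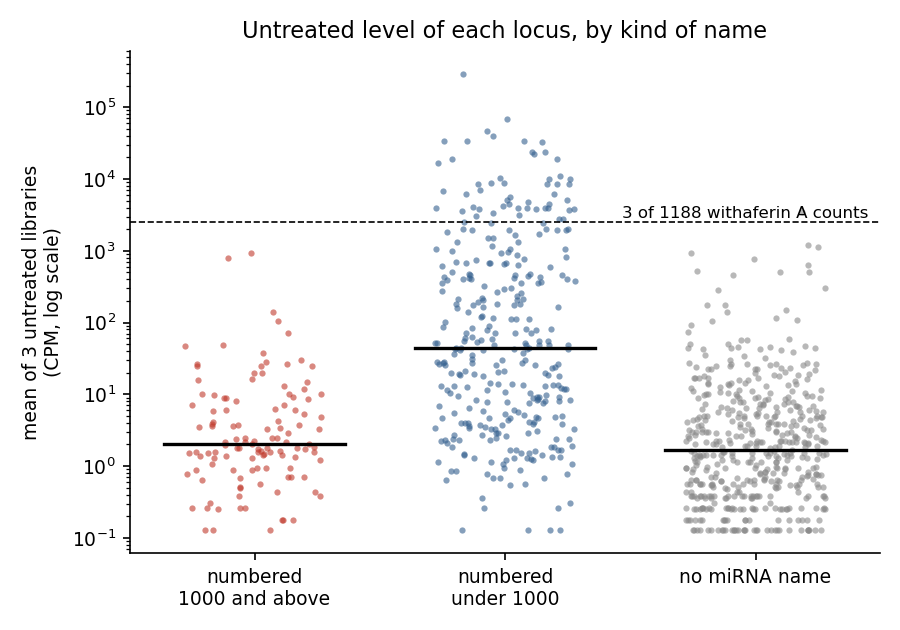
Mean level of each locus over the 3 untreated libraries in CPM (log axis), by kind of name, with black bars at the class medians. Loci numbered 1000 and above centre on 2.01 CPM and all lie under the dashed line, the 2525 CPM that 3 of the 1188 withaferin A counts are worth; 1 locus at 0 is not drawn.

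A pair of miRNAs carried most of this signal. With 1 locus per name, miR-1260b and miR-1307-5p held 65.2% of all untreated member counts, the first 4 names 74.5% and the first 15 names 88.6%. Among all 388 names of the table miR-1260b ranked 66 and miR-1307-5p ranked 70.

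miR-1260b, whose sequence resembles the 3′ end of leucine tRNAs, had 2236, 2701 and 1713 counts in the untreated libraries. These were 870, 1033 and 923 CPM (mean 942 ± 83.1, SD, n = 3), so the libraries lay close together. Its hairpin is on chromosome 11 at 96341438 to 96341526 on the plus strand, and GENCODE 29 annotates no host there, only MAML2 on the opposite strand. It was the only one of 7 tRNA-like numbers with a locus among the members. Without miR-1260b the members' untreated share was 0.179% ± 0.0305.

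miR-1307-5p had 1756, 2897 and 1035 untreated counts, or 683, 1108 and 558 CPM (mean 783 ± 288, SD, n = 3). Replicate 2 was well above the other libraries. Its hairpin on chromosome 10 at 103394253 to 103394401 (minus strand) overlaps an exon of ATP5MD, which encodes a small subunit of the mitochondrial ATP synthase. miR-1303, whose sequence resembles Alu repeats, followed the same order with 98.8, 151 and 65.7 CPM (mean 105 ± 42.8, SD, n = 3).

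miR-3613-5p, from the region of chromosome 13 that also holds miR-15a and miR-16-1, had 161, 112 and 153 CPM in the untreated libraries (mean 142 ± 26.7, SD, n = 3). Here replicate 2 was the lowest library, the reverse of miR-1307-5p. miR-6510-5p showed the same dip, with 43.2, 25.2 and 44.2 CPM (mean 37.5 ± 10.7, SD, n = 3). Its hairpin, on chromosome 17 at 41517164 to 41517217 (minus strand), overlaps an exon of KRT15, the gene of a keratin of basal epithelial cells.

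miR-1322, miR-3065-5p and miR-1296-5p were the steadiest of the members that reached 50 counts in all untreated libraries. miR-1322 had 76.2, 71.5 and 69.0 CPM (mean 72.2 ± 3.69, SD, n = 3). miR-3065-5p had 52.5, 49.7 and 44.7 CPM (mean 49.0 ± 3.94, SD, n = 3) and miR-1296-5p had 47.1, 49.3 and 43.6 CPM (mean 46.7 ± 2.86, SD, n = 3). The miR-3065 hairpin, on chromosome 17 at 81125877 to 81125955 (plus strand), overlaps that of miR-338 on the other strand by 67 bases, in the region of an intron of AATK.

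The next names lay between 15 and 30 CPM. miR-7706, from a hairpin in an exon of AKAP13, had 31.1, 39.4 and 18.9 CPM in the untreated libraries (mean 29.8 ± 10.3, SD, n = 3), with replicate 2 again highest. miR-4677-5p, from an intron of SDCCAG8, had 29.2, 21.4 and 28.6 CPM (mean 26.4 ± 4.32, SD, n = 3), with replicate 2 lowest. miR-4664-5p had 21.8, 32.1 and 21.6 CPM (mean 25.1 ± 6.03, SD, n = 3) and miR-1304-5p had 20.6, 31.0 and 22.6 CPM (mean 24.7 ± 5.49, SD, n = 3). In both replicate 2 was highest. miR-1249-5p, from an intron of KIAA0930, had 19.8, 17.6 and 22.6 CPM, and miR-3934-5p had 18.7, 15.3 and 24.8 CPM (mean 19.6 ± 4.81, SD, n = 3), both with replicate 2 lowest. miR-1275 had 34.2, 24.9 and 24.2 CPM (mean 27.8 ± 5.60, SD, n = 3), but its locus lay on chromosome 1 and RefSeq places the miRNA on chromosome 6.

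**Figure D2:**
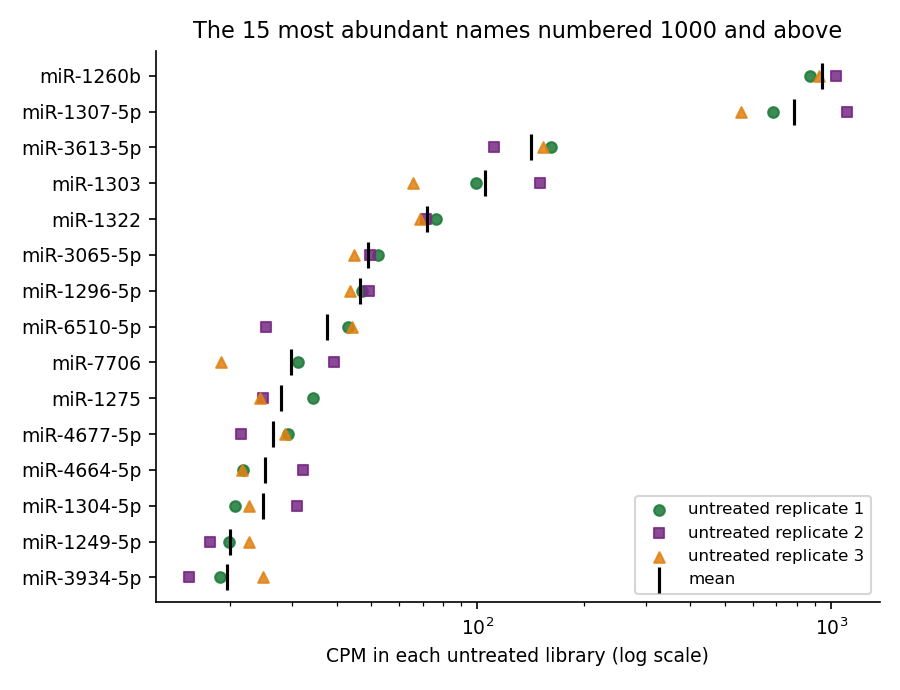
CPM of the 15 most abundant names numbered 1000 and above in each untreated library (log axis, 1 symbol per replicate, bar at the mean). miR-1260b and miR-1307-5p stand near 942 and 783 CPM, and the other 13 names lie at 142 CPM or less.

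The lowest numbers held the highest levels, but beyond them level followed no steady order with the number. The 25 loci from miR-1185-5p to miR-1913 had a median of 7.11 CPM in untreated libraries and held 77.2% of member counts, and 11 of them (44.0%) averaged over 10 CPM. The 5 loci numbered 2000 to 2682 had a median of 2.93 CPM, with 1 over 10 CPM. The 37 loci numbered 3000 to 3944 had a median of 2.15 CPM, with 4 (10.8%) over 10 CPM, and the 29 numbered 4000 to 4802 had 1.42 CPM, with 4 (13.8%), which were copies of miR-4677-5p and miR-4664-5p. The 7 loci numbered 5000 to 5696 had a higher median again, 2.50 CPM, with 2 (28.6%) over 10 CPM. The 17 loci of 6000 and above had 1.34 CPM, with miR-6510-5p, miR-7706 and miR-7976 as the 3 over 10 CPM. The share of loci detected in every untreated library was 76.0% in the first band, 60.0% from 2000, 91.9% from 3000, 58.6% from 4000, 85.7% from 5000 and 70.6% from 6000. At the boundary of the definition, 5 loci named miR-935 to miR-944 had a median of 56.6 CPM (1.44 to 429), with miR-941 repeated among them. The 16 loci up to miR-1296-5p had 4.10 CPM (0.257 to 942).

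**Figure D3:**
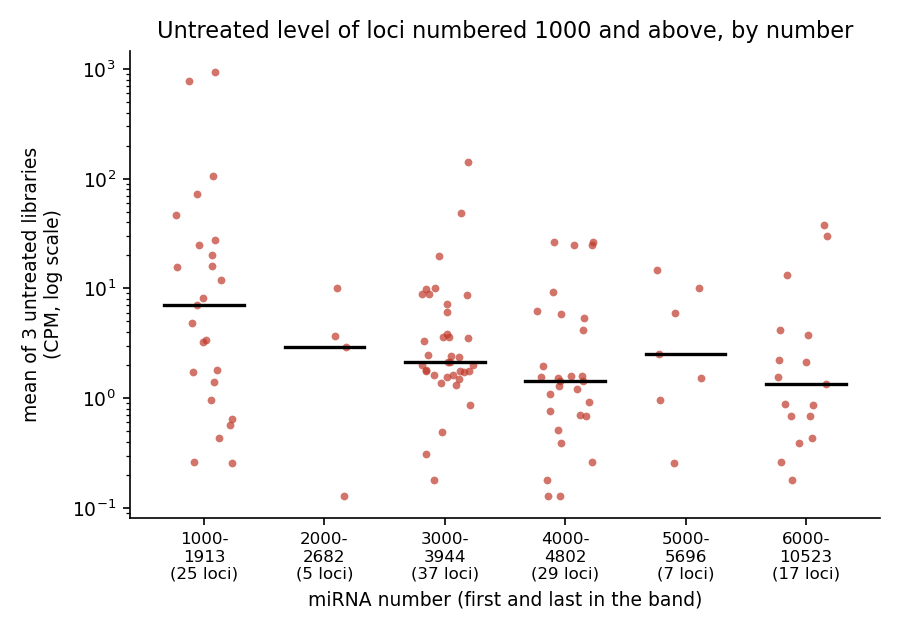
Mean untreated CPM of each locus numbered 1000 and above (log axis) by band of miRNA number, with bars at the medians. The first band has a median of 7.11 CPM and holds the highest locus, and the other bands have medians from 1.34 to 2.93 CPM in no steady order; 1 locus at 0 is not drawn.

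Repeatability over the 3 untreated libraries was read from the coefficient of variation (CV, the SD divided by the mean of the CPM values) at loci with at least 10 counts in each. Its median was 0.215 over 35 members (0.0510 to 0.664) and 0.218 over 239 names under 1000. Counting error alone gives a CV that falls as counts rise, so the classes were also set side by side in bands of mean count, over all loci of each band. Between 10 and 100 counts the median CV was 0.240 over 33 members and 0.303 over 87 names under 1000. The inverse square root of the mean count, the spread that counting error gives, was 0.206 and 0.182 at their median counts. With only 3 libraries the median CV from counting error alone lies below that value, so the excess is understated. Between 100 and 1000 counts the median CV was 0.0805 over 5 members, near the 0.0766 of counting error, and 0.217 over 71 names under 1000, against 0.0599. These 5 members ranged from 0.0510 to 0.407, with miR-3613-5p (0.188) and miR-1303 (0.407) above counting error. At 1000 counts and above the median was 0.228 over the 2 members and 0.158 over 96 names under 1000. The 2 members lay on either side of 0.158, miR-1260b at 0.0882 and miR-1307-5p at 0.368. These are descriptions, with no test of the difference between classes.

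A second measure was the chi-square of the 3 untreated counts against the library totals, per degree of freedom, which has a median of 0.693 when only counting error is present. Its median was 2.17 over the 35 members, with 22 of them above 1. Over the names under 1000, most of them far deeper, it was 19.7, with 213 of 239 above 1. Between 10 and 100 mean counts the median was 1.90 for members and 3.10 for names under 1000. Between 100 and 1000 it was 0.664 and 11.7. miR-1322 (0.424), miR-1296-5p (0.372) and miR-3065-5p (0.664) stayed below 1, so their libraries differed no more than counting allows. miR-1260b (CV 0.0882) had a value of 18.8 at its greater depth. miR-1307-5p (CV 0.368) reached 242, miR-1303 (CV 0.407) 37.8, miR-3613-5p (CV 0.188) 12.8 and miR-6510-5p (CV 0.284) 7.55. The widest spread at 10 counts or more was at miR-5690 (22, 11 and 32 counts, CV 0.664) and miR-1277-5p (36, 21 and 49 counts, CV 0.581), where replicate 2 was lowest and replicate 3 highest.

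The members' median CV depended on untreated replicate 2. That library was either the highest or the lowest library at 28 of the 35 members (80.0%), with 13 highest and 15 lowest. Replicate 1 was at an extreme at 19 of them and replicate 3 at 23. At every locus 2 of the 3 libraries are at an extreme, so high shares are built in. The share for replicate 2 was near that of other loci, 82.8% of names under 1000 and 82.3% of loci without a miRNA name, and among names under 1000 replicate 3 was at an extreme at 85.8%. Without replicate 2 the median CV of the members was 0.0850 and that of names under 1000 was 0.139. Without replicate 3 it was 0.214 for the members and 0.150 for names under 1000, and without replicate 1 it was 0.253 and 0.263. What sets the libraries apart was not tested.

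**Figure D4:**
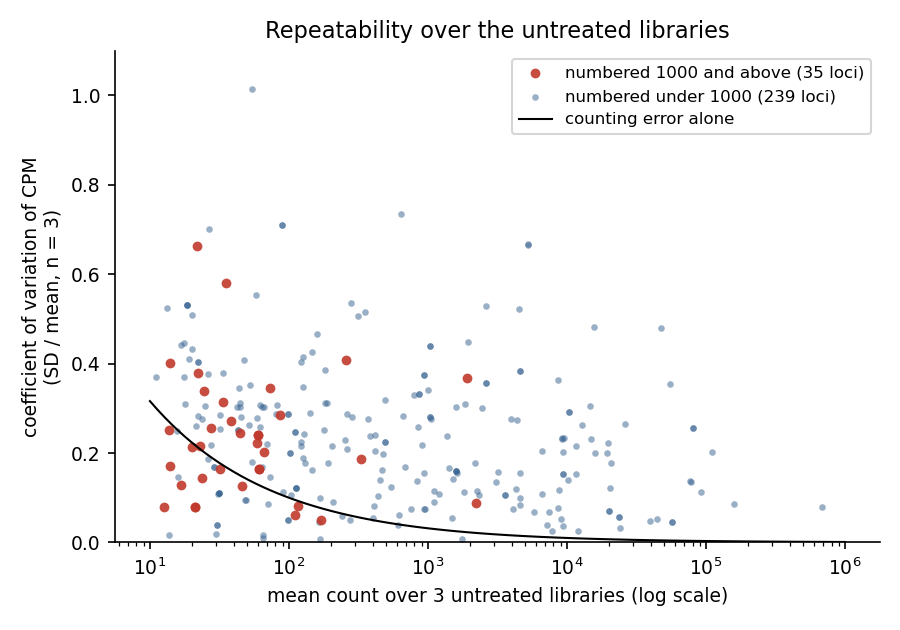
CV of CPM over the 3 untreated libraries against mean count (log axis) for loci with at least 10 counts in each. Loci are numbered 1000 and above (red) or under 1000 (blue). The line for counting error is the inverse square root of the mean count. Below 100 counts red points scatter on both sides of the line, up to 0.664 at miR-5690. At greater counts miR-1307-5p and miR-1303 stand at 0.368 and 0.407, well above it.

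Members repeated at several loci were not separate measurements. Of the 109 names 10 occurred at more than 1 locus (21 loci), and for 8 of the 10 every copy had the same untreated counts. The 4 members on contigs without a chromosome name each repeated the counts of the chromosome copy. RefSeq listed the name on the locus's own chromosome for 102 of 104 loci that could be compared. The exceptions were miR-1275 and 1 of the copies of miR-3074-5p, on chromosome 19 where RefSeq has chromosome 9. Both copies of miR-3074-5p had 10, 11 and 5 untreated counts (3.60 CPM).

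miR-3074-5p lies opposite the miR-24-1 hairpin, which it overlaps by 68 bases, and the sequences of the pair are shown because they come from the facing strands.
miR-3074-5p: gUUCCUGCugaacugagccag
miR-24-3p: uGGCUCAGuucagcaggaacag
The longest stretch of miR-3074-5p that is the reverse complement of miR-24-3p has 20 of its 21 bases. Its level of 3.60 CPM compares with 10322 CPM for miR-24-3p, counted at a chromosome 19 locus on the miR-24-2 hairpin. RefSeq has 2 copies of miR-24-3p, so the part that came from the facing strand is not known. Hairpins of miR-3155b, miR-4524a-5p and miR-4433b also overlapped another miRNA hairpin on the other strand, each at a mean of 3.33 CPM or less.

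Of the 76 member loci that could be placed on a RefSeq hairpin, 49 lay within introns of a gene on the same strand and 16 overlapped an exon of at least 1 of its transcripts in GENCODE 29. A further 9 had only a gene on the other strand and 2 had none. Examples at lower level were miR-1301-5p in an intron of DNMT3A (11.9 ± 3.03 CPM, SD, n = 3) and miR-5690 in an intron of FKBP5 (8.56, 4.21 and 17.2 CPM). miR-1306-5p, whose hairpin is part of the DGCR8 transcript, had 8.17, 11.5 and 4.85 CPM. The mature members had a median GC content of 54.5% (97 names) and names under 1000 47.4% (253 names), at a median length of 22 bases in both. The predicted folding energy of the hairpin per base had medians of −0.48 kcal/mol over 75 names and −0.45 kcal/mol over 209.

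Few of the members compared shared a seed with another name of the table. Only names whose RefSeq sequence was used here were compared, which leaves out miR-1322, miR-1296-5p and miR-4664-5p, among others. The pairs are shown because a shared seed is what ties a late name to a classical family.
miR-1271-5p: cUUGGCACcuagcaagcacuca
miR-96-5p: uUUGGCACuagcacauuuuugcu
miR-2682-5p: cAGGCAGUgacuguucagacguc
miR-34b-5p: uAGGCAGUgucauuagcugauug
miR-449c-5p: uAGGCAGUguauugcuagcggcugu
miR-3155b: cCAGGCUCugcaguggga
miR-484: uCAGGCUCaguccccucccgau
miR-4492: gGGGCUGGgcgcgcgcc
miR-5001-5p: aGGGCUGGacucagcggcggagcu
miR-1271-5p, which carries the seed of miR-96-5p of the miR-183 cluster, had 1.56, 1.53 and 2.16 CPM in untreated libraries, against a mean of 877 CPM for miR-96-5p. miR-2682-5p, made from the host transcript of miR-137, had 2.93 CPM, against 7.94 CPM for miR-34b-5p and 6.54 CPM for miR-449c-5p. miR-3155b had 3.33 CPM, against 358 CPM for miR-484. In each of these the late name was the lower. miR-4492 and miR-5001-5p, both members, had 9.31 and 5.97 CPM. miR-1185-5p and miR-3679-5p also shared a seed, at 1.39 and 1.49 CPM.

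The lists of special origin were nearly empty. Besides miR-1260b, miR-1185-5p was the only member found, 1 of 3 numbers of the imprinted cluster on chromosome 14, with 5, 3 and 2 untreated counts. No member belonged to the lists of entries like ribosomal RNA (4 numbers), small nuclear RNA (1), small nucleolar RNA (4) or mitochondrial RNA (1), to the Alu list, to the 11 mirtron numbers, to the placental cluster on chromosome 19 (2) or to the HTR2C intron (4). The Alu list held only miR-1273 and miR-1285, so it leaves out miR-1303 and says nothing of Alu-like sequence among the members.

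After withaferin A all 120 members had 0 counts in each of the 3 libraries. A count of 0 of 1188 allows a share of up to 0.253% (3 counts, 2525 CPM, counting error only), and every member was below that level in untreated cells. At the untreated shares miR-1260b would have given 1.12 counts over the 3 libraries and miR-1307-5p 0.930, and no other member more than 0.169. All members together would have given 3.24 counts, or 3.16 with 1 locus per name. Their untreated share of 0.244% to 0.315% lies on both sides of the 0.253% allowed. A fall of a member was therefore not detectable at the depth of the table, nor was a rise that stayed under 2525 CPM. No fold can be read from these counts.

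Names under 1000 at like levels were also scarce. Their 256 loci at or below the untreated level of miR-1260b had 8 withaferin A counts where the untreated shares would give 32.5. Of these, 2 were at miR-96-5p and 6 at single counts of miR-320 family loci in replicate 3, copies that can share reads. The 74 more abundant loci named under 1000 had 1155 counts against 1135 expected, but only 34 of them had any count. Expected and observed counts both total 1188 over all loci, and this class holds most of both, so a near-equal sum is built in. Single loci differed, and of those named under 1000 edgeR called 50 lower and 1 higher. These sums run over loci, so reads shared between copies may count more than once. Loci without a miRNA name at or below that level had 25 counts at 3 loci against 10.4 expected.

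**Figure D5:**
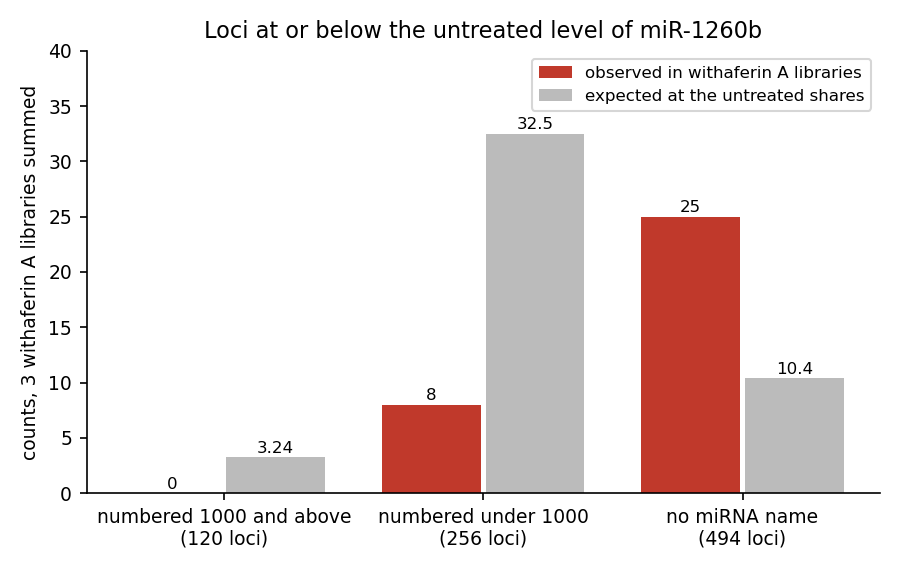
Counts summed over the 3 withaferin A libraries (red) beside the counts expected at the untreated shares (grey), for loci at or below the untreated level of miR-1260b. The 120 loci numbered 1000 and above had 0 against 3.24 expected, and the 256 numbered under 1000 had 8 against 32.5.

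In the edgeR quasi-likelihood test over the 303 loci that passed the filter on low counts, 53 loci were called at an adjusted p under 0.05, which is 17.5%. The 19 members tested, which entered through their untreated counts alone, had 0 calls in edgeR, 1 of them at an unadjusted p under 0.05. The lowest value was at miR-1260b (unadjusted p = 0.0201, edgeR adjusted p = 0.101), followed by miR-1307-5p (edgeR adjusted p = 0.291). The other 17 loci had edgeR adjusted p from 0.767 to 0.792. DESeq2 gave 3 members an adjusted p and called 1, miR-1260b (DESeq2 adjusted p = 0.0270), where 72 of the 156 loci with such a p were called, 46.2%. All 3 withaferin A libraries were at 0 and all 3 untreated libraries above 0 at these 3 members, but the 2525 CPM that 0 counts allow exceeds each untreated mean by at least 2.68 times, so a separation of the groups cannot be read from it.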

How the data were processed

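Small RNA counts per locus were taken from the authors' deposited table of raw counts, whole numbers for 947 loci in 3 untreated and 3 withaferin A libraries. Columns were assigned through the sample names listed in each record. Trim Galore and cutadapt, edgeR, and the build GRCh38.p7 are named, per the submitters' processing notes, without their order. The aligner, the counting rule and any use of molecular identifiers are not given in the sources used here, so counts may include PCR copies and reads assigned to several loci. The authors' deposited normalized values, a scaled score per locus rather than a count, were used only to see which loci they kept.

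CPM used library totals over all loci. Loci were tested with edgeR 4.0.16 (R 4.3.3; TMM factors, filterByExpr at its minimum of 10 counts, quasi-likelihood F test, Benjamini-Hochberg adjustment over all loci tested), with DESeq2 1.42.0 as an alternative, after testing on simulated data. Hairpins were folded with ViennaRNA 2.7.2. RefSeq positions (GRCh38.p14) and GENCODE 29 share the chromosomes of the authors' build.

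Named miRNAs were the 15 most abundant names, any with a withaferin A count or a call (0 in edgeR), the 4 least and 4 most variable at 50 counts or more in all untreated libraries, and list members. Others are named as examples (extremes, copies, shared seeds, hosts) and were chosen after their values were seen. The members and lists were chosen with earlier results of these data known. Alternatives covered scaling, filter, test, replicate block, copies, detection minimum and each library left out.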

Additional observations from a re-analysis of the deposited data

How the results depend on the processing

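No edgeR alternative called a member: library totals, RLE factors, no filter, 1 locus per name, the replicate block and each withaferin A library left out gave 0, and DESeq2 gave 1 (miR-1260b, whose edgeR adjusted p ran from 0.0549 to 0.609). Without 1 of the untreated libraries no member passed the filter. The fitted log2 fold change, which depends on how 0 counts are treated and is no bound, had a median of −8.03 over the members tested and 1.99 in DESeq2, with 16 of 19 above 0; the cause was not tested. Called loci numbered 53, 17 with library totals, 25 with the replicate block, and 6 to 59 with 1 library left out (6 to 9 of the 10 to 12 loci then tested without an untreated library). Deviations of same-numbered libraries had r of 0.0526, −0.0045 and 0.0772. Only 44 of the 947 loci had any withaferin A count, so this cannot decide whether those libraries were paired. Members detected in every untreated library were 91, 35 at 10 counts, 87 at equal depth. Their share was 0.273%, 0.179% without the tRNA-like member. Their median level was 2.01 CPM and 3.60 CPM among those detected in every untreated library. The median CV of 0.215 was 0.322 with any count above 0, and 0.0850 to 0.253 with 1 untreated library left out; for names under 1000 it was 0.139 to 0.263. At 50 counts the members' CV was 0.164 over 10 loci. Depth limits every statement on withaferin A.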
